A study of Mus musculus with 14 samples.

Results

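The genes described here write, remove or read acetyl marks, mainly those on the lysines of histones. They form a list of 46 mouse gene symbols, and all 46 were found among the 24946 symbols of the expression table and among the 12693 genes that were tested. By role they were 10 lysine acetyltransferases, 7 N-terminal and RNA acetyltransferases, 11 zinc-dependent deacetylases, 7 sirtuins, and 11 acetyl-lysine readers and scaffolds of MYST acetyltransferase complexes. Not every member acts on histones. Naa10, Naa20, Naa30 and Naa50 acetylate the N termini of newly made proteins, Naa15 is the auxiliary subunit that anchors Naa10 to the ribosome, Nat10 acetylates cytidine in RNA, Sirt3, Sirt4 and Sirt5 are mitochondrial, and a main substrate of Hdac6 is tubulin.

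The cells were mouse hepatocellular carcinoma (HCC) cells from a tumour induced with diethylnitrosamine. Their poly(A) RNA was sequenced in 14 libraries of 4 genotypes that descend from the same Acly f/f cells. Cells of every genotype were cultured for 1 day in DMEM with calf serum before RNA extraction. WT cells (line D42V, 4 libraries) kept ATP-citrate lyase (ACLY), which makes acetyl-CoA from citrate, and ACSS2, a short-chain acyl-CoA synthetase, which makes it from acetate. ACLY KO cells (D42C4V, 4 libraries) were a clone isolated after adenoviral Cre, and both of these genotypes carried the empty LentiCRISPR v2 vector and were not cloned after receiving it. ACSS2 KO cells (D42 Sg2-3, 3 libraries) were a clone made with a guide against Acss2 in that vector, and DKO1 cells (D42C4 Sg2-2, 3 libraries) were a clone made with the same guide from ACLY KO cells, so they lacked both enzymes. Each knockout genotype was thus 1 clone, and clone and genotype cannot be told apart. The study refers to plotted points as biological replicates without saying from which cultures these libraries came, so the p-values below measure only the spread between these libraries.

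Acetyltransferases such as p300, CBP and the MYST enzymes transfer the acetyl group of acetyl-CoA to lysine, and so draw on the same nuclear and cytosolic pool that ACLY and ACSS2 fill. Zinc-dependent deacetylases (HDACs) hydrolyse the mark and release acetate, whereas sirtuins remove it with NAD+ as co-substrate. Bromodomain and YEATS domain proteins bind acetylated lysine and bring transcription and remodelling factors to it.

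The values were normalized counts, which summed to between 23512975 and 26901953 in a library. Acly transcripts were at 5461 to 6435 in WT and 5542 to 5762 in ACSS2 KO, against 965 to 1084 in ACLY KO and 931 to 956 in DKO1. Acss2 was at 224 to 252 in WT and 127 to 136 in ACSS2 KO, yet at 660.4 to 787 in ACLY KO and 455 to 578 in DKO1, so its transcript does not by itself mark the cells that lost the protein. In 4 libraries, WT replicate 2, ACLY KO replicate 4, ACSS2 KO replicate 1 and DKO1 replicate 4, values fell with transcript length relative to the other libraries of their genotype (Spearman's rho across 12610 genes from -0.70 to -0.54). The same was seen over the 46 members (rho from -0.85 to -0.73), and the 12 members with transcripts of 5000 bases or more had median deviations of -0.35, -0.14, -0.14 and -0.46 (log2) in those 4 libraries, so several long members are given below also without them. Of 10 hepatocyte markers, only Krt8 and Krt18 averaged over 100 normalized counts in every genotype, Alb averaged 11.3 to 133.7 and Apoa1 0.98 or less, while 3 of 4 cholangiocyte markers passed that level (Krt19, Krt7 and Sox9). The summed cholangiocyte markers were at 21647 to 31969 in WT and 8608 to 9374 in ACLY KO, the summed hepatocyte markers at 48159 to 65091 and 34766 to 37923, and the 5 fibroblast or stellate markers at 544 to 650.4 and 2504 to 2906. In ACSS2 KO and DKO1 these sums were 18274 to 20515 and 11195 to 18276 for cholangiocyte, 41065 to 44040 and 26345 to 45300 for hepatocyte, and 1363 to 1422 and 778 to 807 for fibroblast or stellate markers. Krt8 and Krt18 made up most of each hepatocyte sum. Of the other hepatocyte markers, Afp averaged 37.0 in WT and 127.2 in ACLY KO, whereas Hnf4a averaged 172.2 and 28.7. Most of the fibroblast or stellate rise in ACLY KO was Col1a1, at 428.3 in WT and 2454 in ACLY KO, with Dcn at 154.4 and 181.9. In ACSS2 KO it was mostly Dcn, at 820.0. The part of these differences in the results below was not tested. The 4 macrophage or leukocyte markers summed to 1072 to 1543 in any library, most of it Csf1r, with Adgre1 at 0 on average in WT, ACSS2 KO and DKO1 and at most 0.855 in any library, and the 4 endothelial markers to 10.5 to 92.3.

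**Figure D1:**
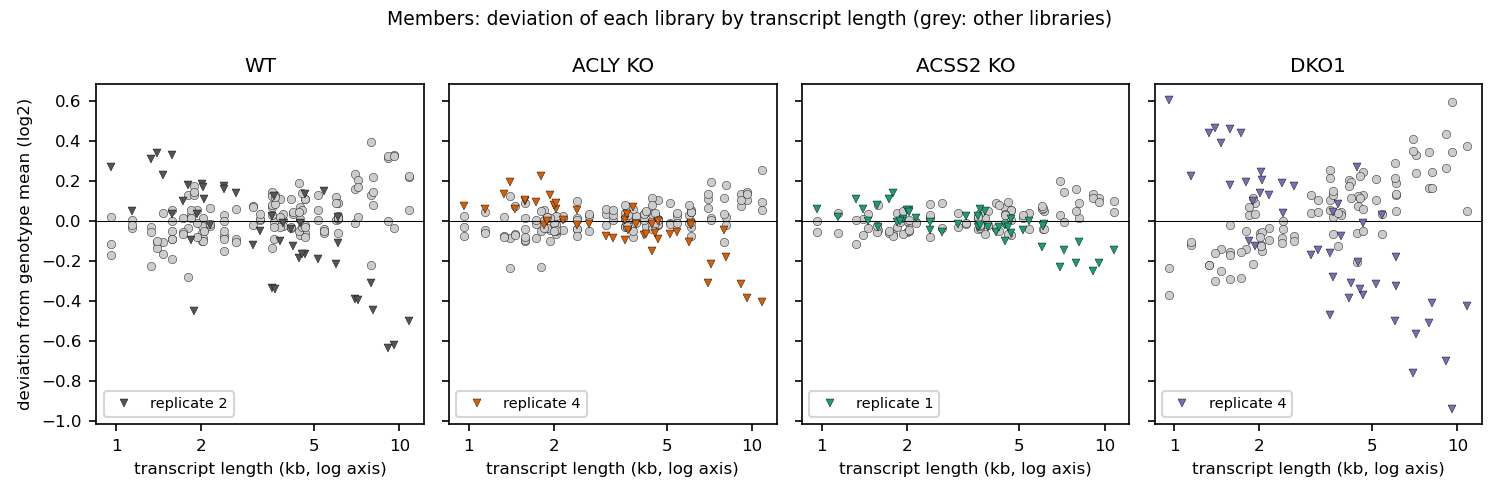
Deviation of each member from the mean of its genotype (log2, vertical axis) against transcript length (kb, log axis) in the 4 genotypes, with 1 point for each of 46 members in each library. Coloured triangles are the library in which long members were low, from a Spearman's rho of -0.73 in WT replicate 2 to -0.85 in DKO1 replicate 4, and grey points are the other libraries.

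All members were tested in the same limma fit, on log2(value + 1), as all 12693 genes, and a call is an adjusted p under 0.05. Without ACLY (ACLY KO minus WT), 6 members were higher (13.0%) and 11 lower (23.9%), where 23.8% of all genes tested were higher and 24.7% lower. With ACSS2 also absent (DKO1 minus ACSS2 KO), 6 were higher and 18 lower (39.1%), against 25.9% and 27.8% of all genes. Loss of ACSS2 alone (ACSS2 KO minus WT) left 5 members higher and 6 lower, against 15% and 11%, and its loss in cells without ACLY (DKO1 minus ACLY KO) left 4 higher and 8 lower, against 14.3% and 13.6%. For loss of both enzymes (DKO1 minus WT) the counts were 7 higher and 18 lower, against 27.9% and 28.1%. The median log2 fold change of the members was between -0.13 and 0.04 in these 5 comparisons, and that of all genes between -0.01 and 0.01. Without length correction, higher calls were thus a smaller share of the members than of all genes in each of the 5 comparisons. Lower calls were a larger share in each but ACLY KO minus WT. These differences in share were not tested. After correction for transcript length, which also moved the background, the members were 9 higher and 20 lower in ACLY KO minus WT (30% and 31.3% of all genes). They were 8 higher and 21 lower in DKO1 minus ACSS2 KO (31.2% and 32%), and 10 higher and 8 lower in ACSS2 KO minus WT (21.2% and 19%). Lower calls were then a larger share of the members in ACLY KO minus WT too. In ACSS2 KO minus WT higher calls became a slightly larger share of the members than of all genes, and lower calls a slightly smaller one. These shares were not tested either. The largest falls were those of the sirtuin genes Sirt1 and Sirt5 and of the histone N-terminal acetyltransferase gene Naa40 in cells without ACLY, and the largest rises those of the deacetylase genes Hdac9 and Hdac11. In bulk RNA, fewer cells of a kind and less RNA per cell cannot be told apart.

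**Figure D2:**
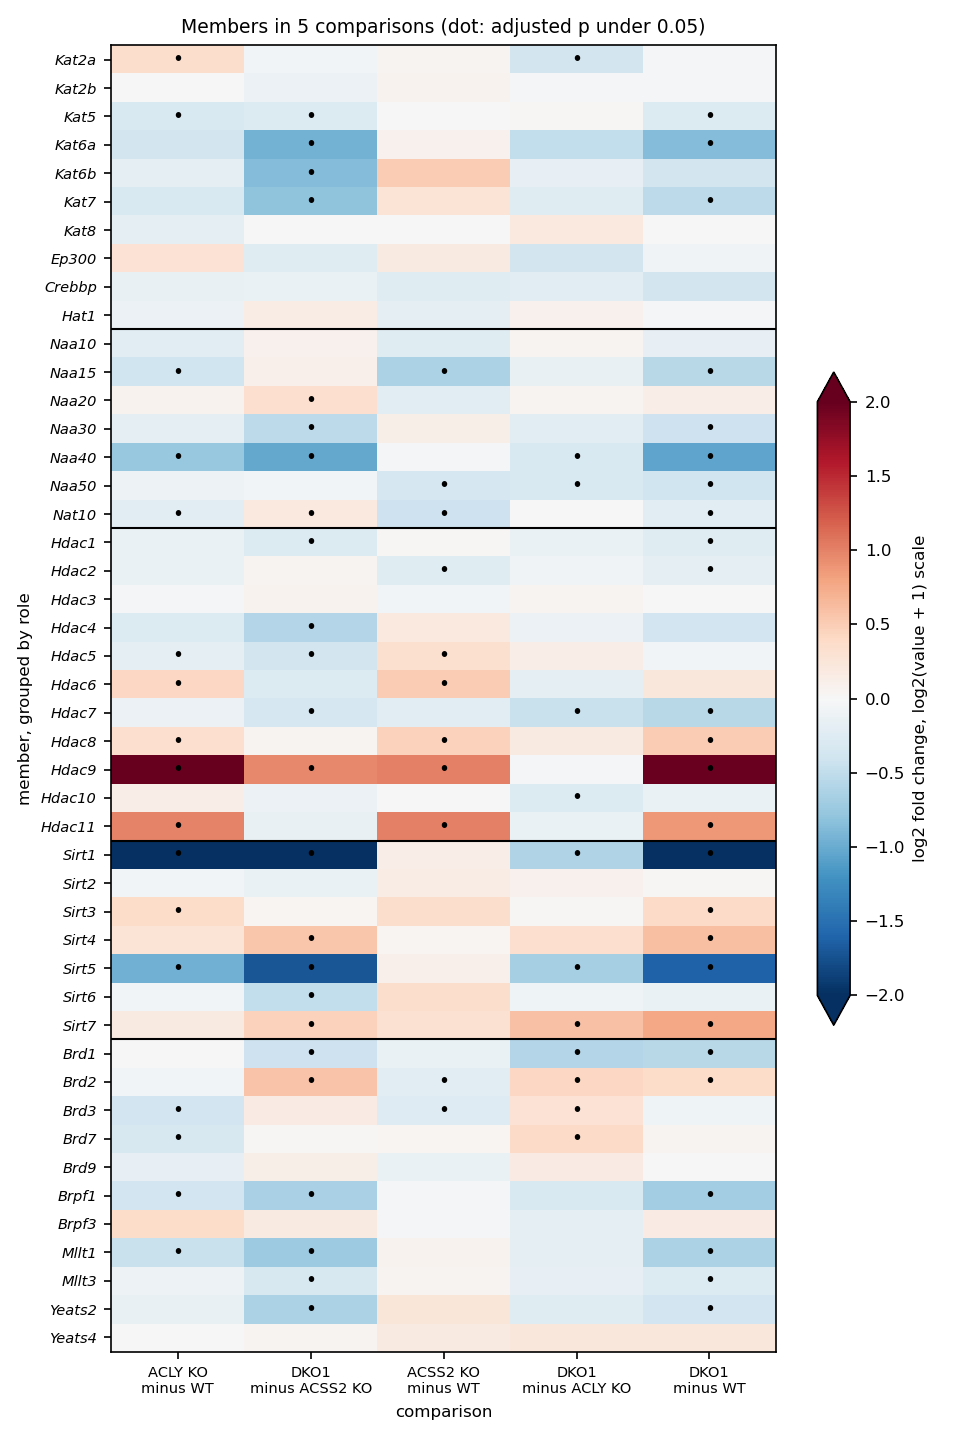
Log2 fold change of each of 46 members (rows, grouped by role between black lines) in 5 comparisons (columns), with red for higher and blue for lower in the first-named genotype, colours saturating at 2 and dots for adjusted p under 0.05. Sirt1 and Sirt5 are the darkest blue rows, at -2.06 and -0.96 in ACLY KO minus WT, and Hdac9 the darkest red, at 1.99.

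Among the 10 lysine acetyltransferases, 1 was higher and 1 lower in ACLY KO minus WT, where 23.8% of all genes were higher and 24.7% lower. After length correction 1 was higher and 5 lower there, where 30% and 31.3% of all genes were. In DKO1 minus ACSS2 KO 0 were higher and 4 lower, where 25.9% and 27.8% of all genes were. In ACSS2 KO minus WT limma called 0 of these acetyltransferases, with 0 at an unadjusted p under 0.05, where 15% of all genes were higher and 11% lower. After length correction 1 was higher and 1 lower, where 21.2% and 19% of all genes were. In DKO1 minus ACLY KO 1 was called, as lower, where 14.3% of all genes were higher and 13.6% lower. Neither p300 nor CBP was called in any comparison. Kat2a encodes GCN5, the acetyltransferase of the SAGA and ATAC coactivator complexes. Its values were 1909, 1668, 1901 and 1787 in WT, 2284, 2369, 2415 and 2195 in ACLY KO, 1854, 1836 and 1927 in ACSS2 KO, and 1957, 1843 and 1593 in DKO1. Every ACLY KO library lay above every library of the other 3 genotypes. Kat2a rose 1.28-fold in ACLY KO over WT (adjusted p = 0.001) but not in DKO1 over ACSS2 KO (log2 -0.06, SE 0.081, adjusted p = 0.53), and these effects differed from each other by -0.42 (log2, adjusted p = 0.012). It was also lower in DKO1 than in ACLY KO (-0.37, adjusted p = 0.0031).

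Kat6a and Kat6b, which encode the MYST enzymes MOZ and MORF, have long transcripts and were read in that light. Kat6a was at 3595, 2314, 4474 and 4501 in WT, 3058, 2926, 2993 and 2235 in ACLY KO, 3194, 4178 and 4109 in ACSS2 KO, and 2678, 2389 and 1222 in DKO1. All 3 DKO1 libraries were below all 3 ACSS2 KO libraries, although DKO1 replicates 1 and 3 were above WT replicate 2. Kat6a fell in DKO1 against ACSS2 KO (log2 -0.94, SE 0.29, adjusted p = 0.016) and against WT (-0.86, SE 0.27, adjusted p = 0.017). Without DKO1 replicate 4 these values were -0.59 (adjusted p = 0.051) and -0.51 (adjusted p = 0.068), and the first call was also lost without ACSS2 KO replicate 2 (-0.87, adjusted p = 0.054) or replicate 4 (-0.88, adjusted p = 0.052). With the 4 length-affected libraries left out, the values were -0.71 (adjusted p = 4.1e-06) and -0.72 (adjusted p = 1.3e-06), and Kat6a was then also lower in ACLY KO than in WT (-0.48, adjusted p = 2.8e-05).

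Kat6b was at 544, 418, 645 and 612 in WT, 512, 498, 522 and 383 in ACLY KO, 666, 897 and 796 in ACSS2 KO, and 566, 542 and 251 in DKO1. It fell in DKO1 against ACSS2 KO (-0.87, SE 0.27, adjusted p = 0.015), a call lost without ACSS2 KO replicate 2 (-0.77, adjusted p = 0.058) and with only those 2 genotypes in the fit (adjusted p = 0.082). Without DKO1 replicate 4 the fall was -0.49 (adjusted p = 0.032). Its ACSS2 KO libraries lay above every WT library (0.51, adjusted p = 0.17). Without the 4 length-affected libraries the fall was -0.61 (adjusted p = 1.9e-05) and this difference 0.50 (adjusted p = 0.00013). Kat7, whose product HBO1 is the MYST enzyme tied to replication origins and H3K14 acetylation, was at 2556, 1929, 2689 and 2650 in WT and 2035, 1947, 2093 and 1856 in ACLY KO. In ACSS2 KO it was at 2871, 2952 and 2982, and in DKO1 at 2002, 1952 and 1214. The ACSS2 KO libraries were the highest of all 14, and Kat7 fell 1.75-fold in DKO1 against them (adjusted p = 0.0013) and 1.45-fold against WT (adjusted p = 0.011), of which the second missed the threshold with libraries scaled to equal totals (log2 -0.47, adjusted p = 0.052) and with only WT and DKO1 in the fit (-0.53, adjusted p = 0.076). WT replicate 2 and DKO1 overlapped, and without DKO1 replicate 4 this second fall was -0.30 (adjusted p = 0.029).

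Ep300 and Crebbp encode p300 and CBP, broad coactivators that acetylate H3K27. Ep300 was at 3637, 2416, 4671 and 4666 in WT, 5033, 4894, 5000 and 3483 in ACLY KO, 3648, 4570 and 4499 in ACSS2 KO, and 5356, 4516 and 1853 in DKO1. Crebbp was at 1091, 743, 1223 and 1229 in WT, 1129, 984, 1013 and 716 in ACLY KO, 805, 954 and 920.0 in ACSS2 KO, and 1052, 839 and 604 in DKO1. For both genes the lowest library of each genotype was the one in which long transcripts were low, and all genotypes overlapped. Neither passed the test, and the intervals were wide: the 95% interval of DKO1 minus WT ran from -0.76 to 0.63 for Ep300 and from -0.84 to 0.09 for Crebbp. Without those 4 libraries Ep300 was 0.21 higher in ACLY KO than in WT (log2, adjusted p = 0.031) and Crebbp -0.33 in both ACSS2 KO (adjusted p = 0.0065) and DKO1 (adjusted p = 0.0041) against WT.

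Of the remaining acetyltransferases, Kat5, the Tip60 enzyme of the NuA4 complex, fell in ACLY KO against WT (1381 to 1114 on average, -0.31, adjusted p = 0.00045) and in DKO1 against ACSS2 KO (1381 to 1141, -0.28, adjusted p = 0.0027). Kat2b (PCAF), Kat8 (MOF) and Hat1, which acetylates new histone H4, were not called in any comparison, with log2 fold changes between -0.19 and 0.20 in the 5 comparisons of genotypes. Kat8 and Hat1 have short transcripts. After length correction Hat1 was lower than in WT in ACLY KO (-0.16, adjusted p = 0.029) and DKO1 (-0.23, adjusted p = 0.006). Kat8 was then lower in ACLY KO than in WT (-0.23, adjusted p = 0.029).

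The N-terminal and RNA acetyltransferases held 3 lower and 0 higher of 7 in ACLY KO minus WT, 3 lower and 0 higher in ACSS2 KO minus WT, and 5 lower and 0 higher in DKO1 minus WT. In DKO1 minus ACSS2 KO, 2 were higher and 2 lower. Higher calls were 23.8%, 15%, 27.9% and 25.9% of all genes in these 4 comparisons, and lower calls 24.7%, 11%, 28.1% and 27.8%. Naa40 encodes NatD, which acetylates the N termini of histones H4 and H2A and is the family's histone enzyme. It was at 2040, 1970, 2051 and 2086 in WT and 2029, 1974 and 1979 in ACSS2 KO, against 1210, 1228, 1249 and 1133 in ACLY KO and 1051, 1010 and 884 in DKO1. The genotypes with and without ACLY did not overlap. Naa40 fell 1.69-fold in ACLY KO against WT (log2 -0.76, SE 0.06, adjusted p = 3.1e-07) and 2.04-fold in DKO1 against ACSS2 KO (-1.03, SE 0.069, adjusted p = 5.9e-08). It was lower again in DKO1 than in ACLY KO (-0.30, adjusted p = 0.0042), and the effects of ACLY loss with and without ACSS2 differed by -0.27 (adjusted p = 0.046), a call that was lost on leaving out any of 11 of the 14 libraries (adjusted p up to 0.10, on leaving out ACSS2 KO replicate 1).

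Naa15 was at 6724, 7126, 7143 and 7089 in WT, 5208, 5309, 5490 and 5285 in ACLY KO, 4452, 4657 and 4372 in ACSS2 KO, and 5251, 4973 and 4229 in DKO1. WT stood above all other libraries. Naa15 fell 1.32-fold in ACLY KO (adjusted p = 0.00018) and 1.56-fold in ACSS2 KO (adjusted p = 2.1e-05) against WT, whereas in DKO1 against ACSS2 KO it was 0.10 (SE 0.074, adjusted p = 0.30). Its transcript is long, and this last value was 0.18 (adjusted p = 0.0059) without the 4 length-affected libraries and 0.35 (adjusted p = 0.0053) after length correction. The effects of ACLY loss on Naa15 differed by 0.49 (adjusted p = 0.0024), or by 0.34 (adjusted p = 0.082) with libraries scaled to equal totals. Nat10 was likewise highest in WT and lowest in ACSS2 KO, with 2488, 2464, 2439 and 2542 in WT, 2147, 2183, 2130 and 2119 in ACLY KO, 1826, 1926 and 1838 in ACSS2 KO, and 2207, 2183 and 2028 in DKO1. It fell in ACLY KO against WT (-0.21, adjusted p = 0.0021) and rose in DKO1 against ACSS2 KO (0.20, adjusted p = 0.0074). With all libraries and no length correction, Nat10 was the 1 member called in opposite directions by loss of ACLY in the 2 backgrounds. Both calls were lost with equal totals (-0.10 and 0.16), a scaling that moved the median of all genes by 0.10 and -0.04, and the difference between them then changed from 0.41 (adjusted p = 0.00094) to 0.26 (adjusted p = 0.087).

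Naa30, the catalytic subunit of NatC, was at 1018, 1062, 1122 and 1077 in WT, 932, 956, 1011 and 840.0 in ACLY KO, 1081, 1211 and 1186 in ACSS2 KO, and 845, 875 and 695 in DKO1. It fell 1.44-fold in DKO1 against ACSS2 KO (adjusted p = 0.00038) and 1.33-fold against WT (adjusted p = 0.0014), with no overlap of the DKO1 libraries with either. Naa50 fell in ACSS2 KO against WT (5274 to 4167 on average, -0.34, adjusted p = 0.0033), a call lost with equal totals (-0.23, adjusted p = 0.097), and in DKO1 against ACLY KO (4904 to 4002, -0.30, adjusted p = 0.0076). It was the 1 member lower after loss of ACSS2 in both backgrounds. Naa20, the NatB catalytic subunit, was higher in DKO1 than in ACSS2 KO (0.34, adjusted p = 0.0046), but its transcript is short and the value was -0.05 (adjusted p = 0.72) after correction for transcript length. Naa10, the NatA catalytic subunit, was not called in any comparison, but its values of -0.23 and 0.08 in ACLY KO minus WT and DKO1 minus ACSS2 KO became -0.30 (adjusted p = 1.5e-05) and -0.37 (adjusted p = 7.8e-06) after that correction.

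Among the 11 zinc-dependent deacetylases, 4 were higher and 1 lower in ACLY KO minus WT, where 23.8% of all genes were higher and 24.7% lower. After length correction these counts were 4 and 3, beside 30% and 31.3% of all genes. In ACSS2 KO minus WT 5 were higher and 1 lower, where 15% and 11% of all genes were. In DKO1 minus ACSS2 KO, 1 was higher and 4 lower, where 25.9% and 27.8% of all genes were. In DKO1 minus ACLY KO 0 were higher and 2 lower, where those shares were 14.3% and 13.6%. In DKO1 minus WT 3 were higher and 3 lower (27.3% each), near the 27.9% and 28.1% of all genes. Hdac9, a class IIa enzyme that acts mostly as a corepressor scaffold, had the largest rise. It was at 43.6, 26.4, 36.1 and 28.2 in WT, 145, 125, 137 and 129.8 in ACLY KO, 58.2, 69.8 and 75.2 in ACSS2 KO, and 148, 168 and 92.5 in DKO1. WT was lowest, ACSS2 KO intermediate, and both genotypes without ACLY highest and overlapping. Hdac9 rose 3.98-fold in ACLY KO (log2 1.99, SE 0.19, adjusted p = 2e-06), 2.01-fold in ACSS2 KO (1.01, SE 0.21, adjusted p = 0.0029) and 3.92-fold in DKO1 (adjusted p = 4.1e-06) against WT. DKO1 differed from ACLY KO by -0.02 (95% interval -0.47 to 0.43), so the effect of ACLY loss was smaller where ACSS2 was absent (0.96 against 1.99, difference -1.03, adjusted p = 0.02). The difference missed the threshold without ACSS2 KO replicate 4 (-0.95, adjusted p = 0.056) and with quantile normalization (-0.79, adjusted p = 0.069).

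Hdac11, the class IV enzyme known for removing long-chain acyl groups, was at 276, 325, 274 and 307 in WT, 596, 600.1, 565 and 579.7 in ACLY KO, 570.4, 579 and 630.0 in ACSS2 KO, and 507, 499.6 and 605 in DKO1. WT stood below every other library, and the 3 knockout genotypes overlapped. Hdac11 rose 1.98-fold in ACLY KO (adjusted p = 3.5e-07), 2.01-fold in ACSS2 KO (adjusted p = 2.8e-06) and 1.81-fold in DKO1 (adjusted p = 2.5e-06). In the cells already lacking ACSS2, loss of ACLY left it at -0.15 (SE 0.091, adjusted p = 0.19), a difference between effects of -1.13 (SE 0.12, adjusted p = 2e-05), the largest in size among the members. Without the 4 length-affected libraries Hdac11 was lower in DKO1 than in ACSS2 KO (-0.26, adjusted p = 0.012).

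Hdac6, the cytoplasmic tubulin deacetylase, rose after each single loss as well, with 906, 902, 1001 and 908 in WT, 1266, 1238, 1264 and 1175 in ACLY KO, 1262, 1392 and 1280 in ACSS2 KO, and 1245, 1218 and 827 in DKO1. It rose 1.33-fold in ACLY KO (adjusted p = 0.0066) and 1.41-fold in ACSS2 KO (adjusted p = 0.0068). In DKO1 it was at -0.28 against ACSS2 KO (adjusted p = 0.075) and at 0.22 against WT (adjusted p = 0.13), with DKO1 replicate 4 below every WT library. Without the 4 length-affected libraries Hdac6 was higher in DKO1 than in WT (0.39, adjusted p = 2.8e-05) and at -0.12 against ACSS2 KO (adjusted p = 0.12). After length correction it was 0.34 higher in DKO1 than in WT (adjusted p = 0.00064). Its difference between effects was -0.69 (adjusted p = 0.0076) with all libraries and -0.54 (adjusted p = 0.00011) without the 4 length-affected libraries, of which DKO1 replicate 4 held the 827. Hdac4, another class IIa enzyme with a long transcript, was at 643, 447, 708 and 673 in WT, 568, 494, 508 and 442 in ACLY KO, 650.5, 705 and 743 in ACSS2 KO, and 549, 519 and 348 in DKO1. It fell in DKO1 against ACSS2 KO (-0.59, adjusted p = 0.017), but at -0.39 missed the threshold without DKO1 replicate 4 (adjusted p = 0.056) and at -0.55 without ACSS2 KO replicate 4 (adjusted p = 0.057), and it was -0.44 (adjusted p = 0.00023) without the 4 length-affected libraries.

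The class I enzymes that form the catalytic core of the Sin3, NuRD, CoREST and NCoR corepressor complexes moved less. Hdac1 fell in DKO1 against ACSS2 KO (4195 to 3466, -0.28, adjusted p = 0.013), a call lost without DKO1 replicate 1 (-0.21, adjusted p = 0.052). Its fall against WT (-0.25, adjusted p = 0.015) was lost without DKO1 replicate 1 (-0.18, adjusted p = 0.072) or 3 (-0.23, adjusted p = 0.056). After length correction the Hdac1 falls against ACSS2 KO and WT were -0.38 (adjusted p = 1.6e-06) and -0.34 (adjusted p = 2.5e-06). Hdac2 fell in ACSS2 KO against WT (3740 to 3143, -0.25, adjusted p = 0.034), a call that rested on WT replicates 2 and 3 and on every ACSS2 KO library (adjusted p up to 0.13 on leaving out ACSS2 KO replicate 2). It was also lower in DKO1 than in WT (-0.20, adjusted p = 0.043), a call lost without any of 11 libraries (adjusted p up to 0.15, without DKO1 replicate 3). Among these was every ACLY KO and ACSS2 KO library. They enter this comparison only through the shared estimate of the spread and left the value at -0.20 (adjusted p up to 0.058). After length correction the Hdac2 falls in ACSS2 KO and DKO1 against WT were -0.23 (adjusted p = 0.00054) and -0.29 (adjusted p = 2.9e-05). Hdac3 was not called in any comparison and lay between -0.06 and 0.07 in the 5 comparisons of genotypes. Hdac8 rose in ACLY KO (138 to 174, 0.33, adjusted p = 0.0029), ACSS2 KO (189, 0.46, adjusted p = 0.0012) and DKO1 (197, 0.51, adjusted p = 0.00017) against WT. The class IIa genes Hdac5 and Hdac7 differed. Hdac5 rose in ACSS2 KO against WT (1454 to 1812, 0.32, adjusted p = 0.0055) and fell in DKO1 against ACSS2 KO (-0.37, adjusted p = 0.0013). Its smaller fall in ACLY KO against WT (-0.20, adjusted p = 0.027) was lost without WT replicate 1 (-0.16, adjusted p = 0.086) or 4 (-0.19, adjusted p = 0.06), without ACLY KO replicate 1 (-0.17, adjusted p = 0.082) or 2 (-0.18, adjusted p = 0.073), and with equal totals (-0.09, adjusted p = 0.33). Hdac7 fell in DKO1 against ACLY KO (4415 to 3271, -0.45, adjusted p = 0.0056) and WT (-0.56, adjusted p = 0.00044), and against ACSS2 KO by -0.34 (adjusted p = 0.018), a call lost without ACSS2 KO replicate 2 (-0.30, adjusted p = 0.069). Without DKO1 replicate 4 Hdac7 was at -0.29 against ACLY KO (adjusted p = 0.0036) and -0.19 against ACSS2 KO (adjusted p = 0.031). Hdac10 fell in DKO1 against ACLY KO alone (-0.27, adjusted p = 0.027), a call lost without ACLY KO replicate 2 (-0.23, adjusted p = 0.079), DKO1 replicate 1 (-0.27, adjusted p = 0.05) or DKO1 replicate 3 (-0.25, adjusted p = 0.075).

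The sirtuins held the largest fall and members that moved in either direction. In ACLY KO minus WT 1 of 7 was higher and 2 lower, where 23.8% of all genes were higher and 24.7% lower. After length correction these counts were 3 and 2, beside 30% and 31.3% of all genes. In DKO1 minus ACSS2 KO 2 were higher and 3 lower, where 25.9% and 27.8% of all genes were. Length correction made these counts 2 and 5, beside 31.2% and 32%. In ACSS2 KO minus WT limma called 0 of the sirtuins, with 4 at an unadjusted p under 0.05, where 15% of all genes were higher and 11% lower. After length correction 2 were higher there, where 21.2% of all genes were. In DKO1 minus WT 3 were higher and 2 lower, where 27.9% and 28.1% of all genes were. Sirt1, the nuclear sirtuin that deacetylates p53, FOXO factors and histones and also activates ACSS2 by deacetylation, was at 404, 369, 478 and 433 in WT and 456, 459 and 472 in ACSS2 KO. It was at 98.3, 97.2, 106 and 98.8 in ACLY KO and at 56.7, 62.7 and 79.1 in DKO1. ACLY KO libraries spanned only 97.2 to 106, and no library without ACLY came near one with it. Sirt1 fell 4.16-fold in ACLY KO against WT (log2 -2.06, SE 0.10, 95% interval -2.28 to -1.83, adjusted p = 5.7e-09) and 6.97-fold in DKO1 against ACSS2 KO (-2.80, SE 0.12, adjusted p = 1.1e-09). Loss of ACSS2 left it at 0.14 (adjusted p = 0.41) with ACLY and lowered it by a further 1.52-fold without ACLY (adjusted p = 0.0016), and this difference was itself called (-0.74, adjusted p = 0.004).

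Sirt5, the mitochondrial sirtuin that removes succinyl, malonyl and glutaryl groups, followed the same order of genotypes. It was at 78.3, 107, 76.9 and 78.6 in WT, 94.5, 91.2 and 86.4 in ACSS2 KO, 36.4, 40.6, 47.1 and 49.4 in ACLY KO, and 21.6, 24.0 and 37.5 in DKO1. Sirt5 fell 1.94-fold in ACLY KO against WT (adjusted p = 0.00048) and 3.28-fold in DKO1 against ACSS2 KO (adjusted p = 1e-05), with no overlap in either pair. DKO1 replicate 4, at 37.5, lay above the lowest ACLY KO library, and the fall from ACLY KO to DKO1 (-0.66, adjusted p = 0.02) was lost without ACLY KO replicate 3 (-0.61, adjusted p = 0.054) or 4 (-0.59, adjusted p = 0.053) or DKO1 replicate 1 (-0.51, adjusted p = 0.071) or 3 (-0.58, adjusted p = 0.068). Its transcript is short, and the fall was -0.84 (adjusted p = 9.3e-05) after length correction and -0.82 (adjusted p = 0.0017) without the 4 length-affected libraries. The effects of ACLY loss on Sirt5 differed by -0.76 (adjusted p = 0.051), or by -1.01 (adjusted p = 0.00037) after length correction.

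Sirt7, the nucleolar sirtuin that deacetylates H3K18, ran the other way: 427, 452, 406 and 404 in WT, 473, 479, 451 and 511 in ACLY KO, 564, 501 and 505 in ACSS2 KO, and 590.4, 647 and 979 in DKO1. The DKO1 libraries were the 3 highest of all 14, with replicate 4 far above the other two. Sirt7 rose 1.71-fold in DKO1 against WT (adjusted p = 0.00035), 1.51-fold against ACLY KO (adjusted p = 0.0061) and 1.38-fold against ACSS2 KO (adjusted p = 0.017). The last call was lost without ACSS2 KO replicate 2 (log2 0.43, adjusted p = 0.055) or replicate 4 (0.44, adjusted p = 0.053), and without the 4 length-affected libraries the log2 values were 0.58, 0.40 and 0.30. Without DKO1 replicate 4 alone, the log2 value was 0.37 against ACLY KO (adjusted p = 0.003) and 0.24 against ACSS2 KO (adjusted p = 0.023).

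Sirt4, a mitochondrial sirtuin that restrains glutamate dehydrogenase, was at 122, 127, 109 and 91.8 in WT, 130.0, 115, 139 and 157 in ACLY KO, 127, 109.9 and 109 in ACSS2 KO, and 154, 164 and 194 in DKO1. It rose 1.47-fold in DKO1 against ACSS2 KO (adjusted p = 0.0066) and 1.52-fold against WT (adjusted p = 0.0025). Sirt3, the main mitochondrial deacetylase, was higher in ACLY KO than in WT (107.5 to 138, 0.37, adjusted p = 0.034), a call lost without any of 7 libraries (adjusted p up to 0.097, without WT replicate 1), and higher in DKO1 than in WT (0.38, adjusted p = 0.035), which was 0.19 (adjusted p = 0.16) without DKO1 replicate 4 and was also lost without WT replicate 1, 3 or 4 (adjusted p = 0.089, 0.081 and 0.053). Sirt6, which deacetylates H3K9, fell in DKO1 against ACSS2 KO (296 to 212.5, -0.49, adjusted p = 0.014), a call lost without DKO1 replicate 1 (-0.38, adjusted p = 0.053). Sirt2 was not called in any comparison, at -0.14 to 0.15.

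**Figure D3:**
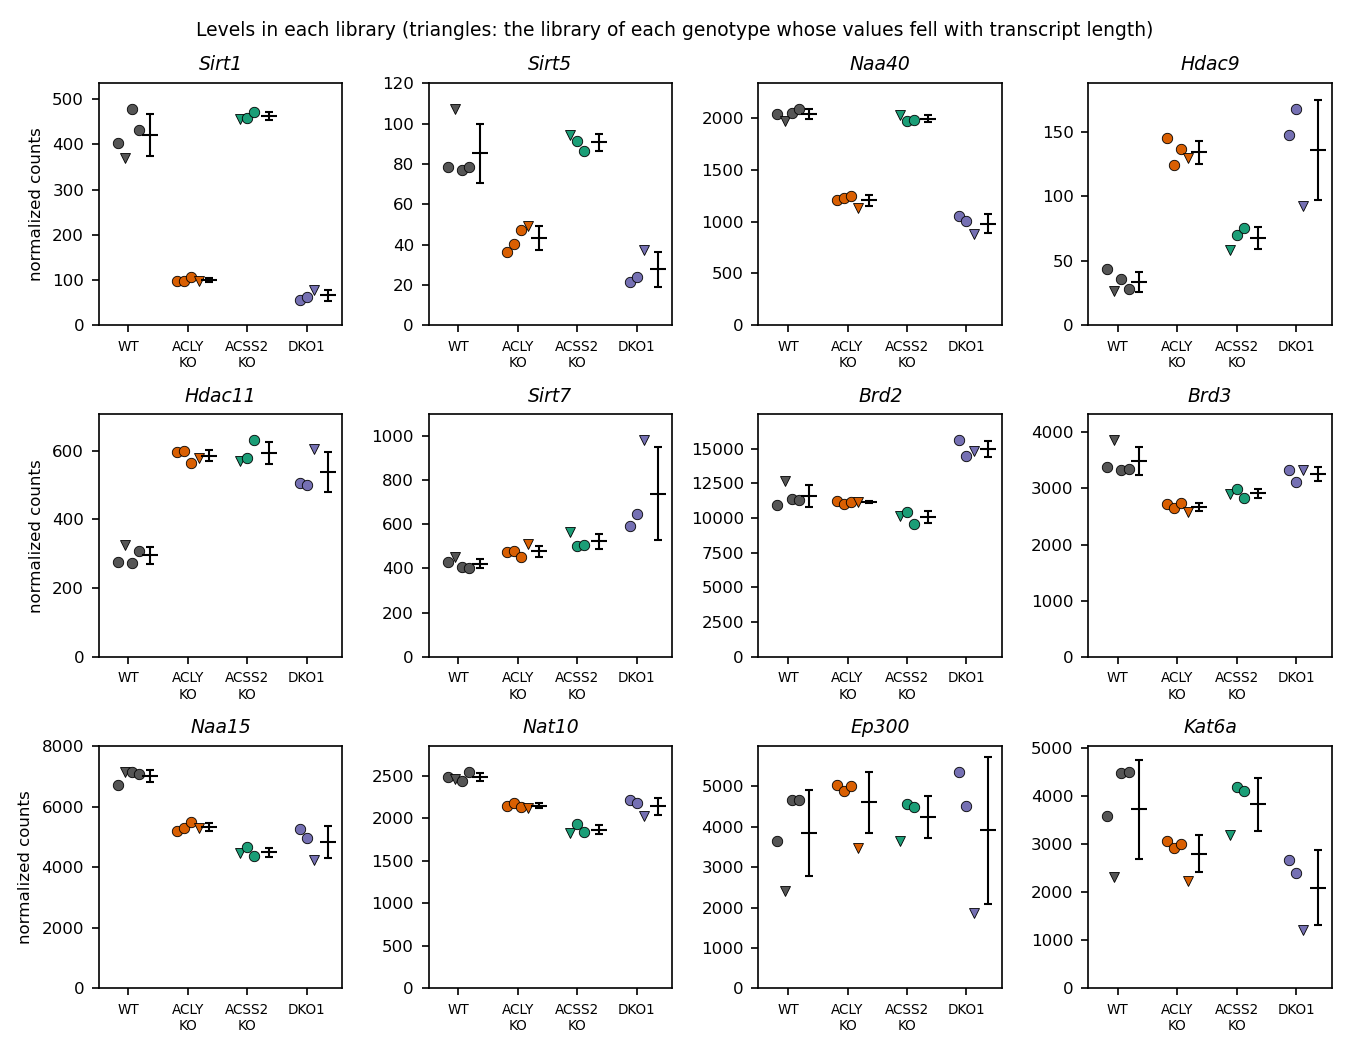
Normalized counts of 12 members (vertical axes from 0) in every library of 4 genotypes, with circles or triangles for single libraries and bars for the mean and SD. Sirt1, Sirt5 and Naa40 are low in both genotypes without ACLY, Hdac11 is at 274 to 325 in WT and at 499.6 or more in the other genotypes, and the triangles of Ep300 and Kat6a are the lowest library of each genotype.

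Among the 11 readers and MYST scaffolds, 0 were higher and 4 lower in ACLY KO minus WT, 1 higher and 5 lower in DKO1 minus ACSS2 KO, 0 higher and 2 lower in ACSS2 KO minus WT, 3 higher and 1 lower in DKO1 minus ACLY KO, and 1 higher and 5 lower in DKO1 minus WT. Of all genes, 23.8%, 25.9%, 15%, 14.3% and 27.9% were higher in the same order, and 24.7%, 27.8%, 11%, 13.6% and 28.1% lower. After length correction the counts in DKO1 minus ACSS2 KO were 3 higher and 5 lower, where 31.2% and 32% of all genes were. Brd2 and Brd3 are BET proteins, whose paired bromodomains bind acetylated H4. Brd2 was at 10951, 12699, 11407 and 11319 in WT, 11214, 11029, 11184 and 11163 in ACLY KO, 10122, 10432 and 9575 in ACSS2 KO, and 15591, 14441 and 14829 in DKO1. The 3 DKO1 libraries were above all others. Brd2 was at -0.05 in ACLY KO against WT (adjusted p = 0.47) and rose 1.49-fold in DKO1 against ACSS2 KO (adjusted p = 8.9e-06), a difference of 0.63 (SE 0.088, adjusted p = 0.00018). It was also 1.34-fold higher than in ACLY KO (adjusted p = 0.00028) and 1.29-fold higher than in WT (adjusted p = 0.00023). The smaller fall in ACSS2 KO against WT (-0.21, adjusted p = 0.026) was lost without WT replicate 2 (-0.16, adjusted p = 0.052) or ACSS2 KO replicates 1 (-0.21, adjusted p = 0.067) or 4 (-0.17, adjusted p = 0.13), and was -0.10 with equal totals, where all genes had a median of 0.11.

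Brd3 was at 3379, 3855, 3335 and 3355 in WT, 2714, 2649, 2749 and 2573 in ACLY KO, 2909, 2988 and 2835 in ACSS2 KO, and 3333, 3111 and 3324 in DKO1. Each enzyme's loss alone lowered it against WT (-0.38, adjusted p = 0.00011, without ACLY, and -0.26, adjusted p = 0.0082, without ACSS2), the second of which was lost with equal totals (-0.15, adjusted p = 0.11) and after length correction (-0.31, adjusted p = 0.074), and it rose from ACLY KO to DKO1 (0.29, adjusted p = 0.0044). DKO1 and WT then differed by -0.09 (95% interval -0.23 to 0.04), and the effects of ACLY loss differed by 0.54 (adjusted p = 0.00058). Brd7, a bromodomain subunit of the PBAF remodeller, was at 1966, 2156, 1933 and 1854 in WT, 1604, 1543, 1549 and 1619 in ACLY KO, 2117, 1987 and 1996 in ACSS2 KO, and 2091, 1973 and 2125 in DKO1. ACLY KO stood below every other library, and Brd7 fell there against WT (-0.32, adjusted p = 0.00036) and rose from ACLY KO to DKO1 (0.39, adjusted p = 0.0005). The effects of ACLY loss differed by 0.34 (adjusted p = 0.01), or by 0.19 (adjusted p = 0.13) with equal totals, where all genes had a median of -0.16.

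Brd1 and Brpf1 are scaffolds of HBO1 and of MOZ and MORF. Brpf1 was at 1567, 1426, 1663 and 1760 in WT, 1255, 1261, 1216 and 1175 in ACLY KO, 1527, 1666 and 1489 in ACSS2 KO, and 1155, 1073 and 783 in DKO1. It fell 1.30-fold in ACLY KO against WT (adjusted p = 0.0094) and 1.57-fold in DKO1 against ACSS2 KO (adjusted p = 0.00061), although the first was -0.27 with equal totals (log2, adjusted p = 0.12). Brd1 was at 2352, 2058, 2437 and 2572 in WT, 2353, 2345, 2525 and 2270 in ACLY KO, 2067, 2155 and 2179 in ACSS2 KO, and 1837, 1712 and 1281 in DKO1. Every DKO1 library was below all others, and Brd1 fell 1.49-fold against ACLY KO (adjusted p = 0.0019), 1.47-fold against WT (adjusted p = 0.00079) and 1.34-fold against ACSS2 KO (adjusted p = 0.0086). The last was -0.27 without DKO1 replicate 4 (log2, adjusted p = 0.014), and its adjusted p was 0.068 with only those 2 genotypes in the fit.

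Mllt1 (ENL) and Yeats2 bind acetylated lysine through YEATS domains, in the super elongation complex and in ATAC. Mllt1 was at 3008, 2171, 2914 and 2982 in WT, 2028, 2030, 2062 and 1956 in ACLY KO, 2852, 2967 and 2847 in ACSS2 KO, and 1921, 1954 and 1448 in DKO1. It fell 1.36-fold in ACLY KO against WT (adjusted p = 0.0051) and 1.64-fold in DKO1 against ACSS2 KO (adjusted p = 0.00042). The first was -0.33 with equal totals (log2, adjusted p = 0.065), and WT replicate 2, at 2171, lay between the other WT libraries and ACLY KO. Yeats2 was at 1237, 1061, 1338 and 1311 in WT, 1103, 1133, 1174 and 1033 in ACLY KO, 1329, 1516 and 1533 in ACSS2 KO, and 1148, 1088 and 663 in DKO1. It fell 1.55-fold in DKO1 against ACSS2 KO (adjusted p = 0.0065), a call lost with only those 2 genotypes in the fit (adjusted p = 0.067), and its log2 value was -0.38 without DKO1 replicate 4 (adjusted p = 0.0048) and -0.45 without the 4 length-affected libraries (adjusted p = 9e-06). Its log2 fold change against WT was -0.39 with all libraries (adjusted p = 0.049), -0.14 without DKO1 replicate 4 (adjusted p = 0.21) and past the threshold without only 3 of the 14 libraries, WT replicate 2, DKO1 replicate 1 and DKO1 replicate 3. The ACLY KO and ACSS2 KO libraries enter DKO1 minus WT only through the shared estimate of the spread. Without any 1 of them Yeats2 stayed at -0.39 (adjusted p up to 0.063). Mllt3 (AF9) was lower in DKO1 than in ACSS2 KO (-0.32, adjusted p = 0.029), but at -0.16 without DKO1 replicate 4 (adjusted p = 0.067) and -0.06 after length correction (adjusted p = 0.43), and the call was also lost without any 1 of the ACSS2 KO libraries (adjusted p up to 0.092). Its value in DKO1 minus WT (-0.27, adjusted p = 0.044) was -0.11 without DKO1 replicate 4 (adjusted p = 0.17), and leaving out any of 11 libraries lost that call. Among these was every ACLY KO and ACSS2 KO library, and leaving out any 1 of them kept the value at -0.27 (adjusted p up to 0.057). Brd9, Brpf3 and Yeats4 were not called, at -0.20 to 0.36 in the 5 comparisons of genotypes, although Brpf3 was 0.30 higher in ACLY KO than in WT (adjusted p = 0.00087) without the 4 length-affected libraries. After length correction Brd9 was lower in ACLY KO than in WT (-0.16, adjusted p = 0.023). Yeats4 was then higher in ACSS2 KO than in WT (0.25, adjusted p = 0.0033) and lower in DKO1 than in ACSS2 KO (-0.27, adjusted p = 0.0014).

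The effect of losing ACLY was measured in 2 comparisons that share no library, ACLY KO minus WT and DKO1 minus ACSS2 KO. Of the 46 members, 29 had the same sign in both (63.0%, against 72.1% of all genes tested), and Pearson's r across members was 0.75, against 0.67 across all genes. Kat5, Naa40, Hdac5, Sirt1, Sirt5, Brpf1 and Mllt1 were lower in both (7 members, 15.2%, against 16.6% of all genes). Hdac9 alone was higher in both (2.17%, against 15%). For loss of ACSS2, measured in ACSS2 KO minus WT and DKO1 minus ACLY KO, 21 members had the same sign (45.7%, against 49.3%) and r was 0.02, against -0.03 across all genes. Naa50 was lower in both, and Brd2 and Brd3 were lower without ACSS2 where ACLY was present and higher where it was absent. The members and all genes in these correlations come from the same libraries, and genes are not independent replicates.

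**Figure D4:**
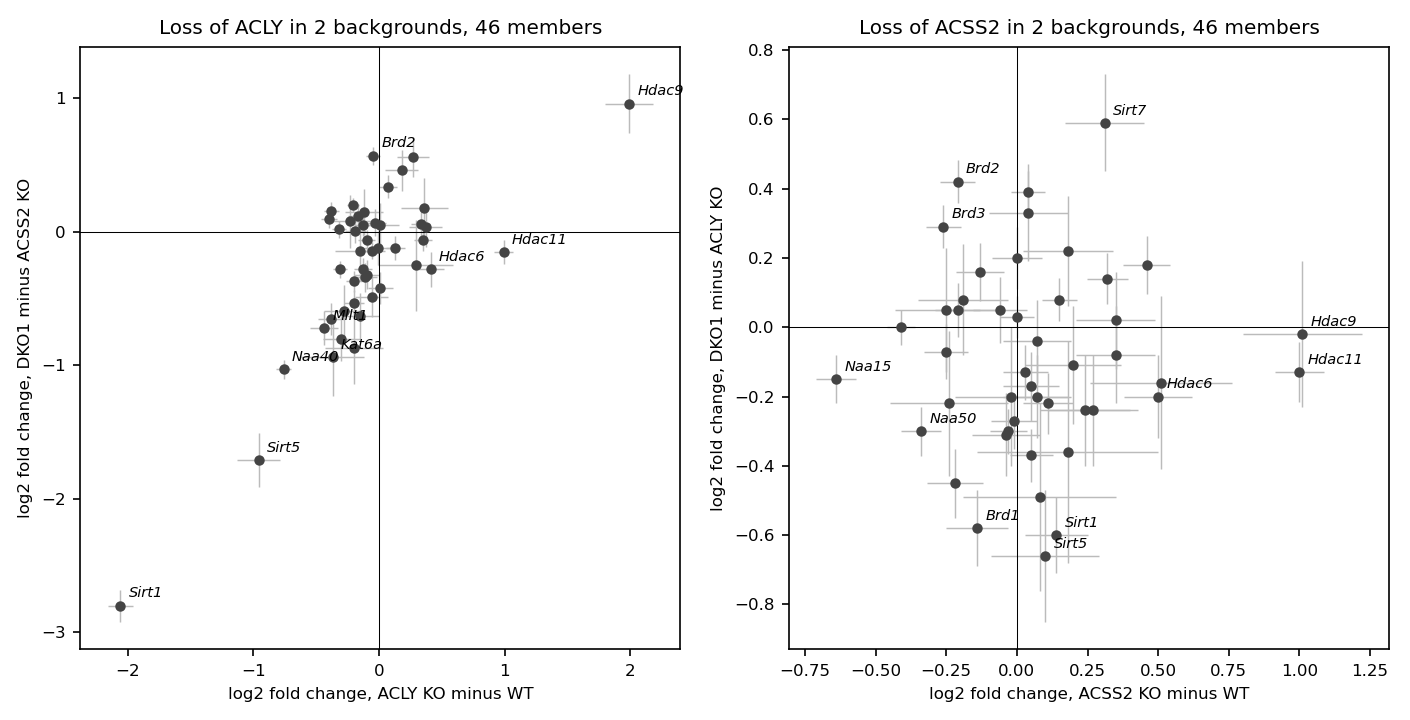
Log2 fold change of 46 members (points, with bars of 1 SE) for loss of ACLY with ACSS2 present (horizontal) and absent (vertical) on the left, and for loss of ACSS2 with ACLY present and absent on the right. Sirt1, Sirt5, Naa40 and Hdac9 lie far from 0 on both axes at the left, whereas Hdac11 and Hdac9 are near 1 on the horizontal and near 0 on the vertical axis at the right.

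The difference between the effects of ACLY loss with and without ACSS2 was called for 11 members, 5 positive (10.9%, against 12% of all genes) and 6 negative (13.0%, against 15.1%). The positive ones were Brd2, Brd3, Brd7, Naa15 and Nat10. Brd3, Naa15 and Nat10 fell against WT after each single loss, and DKO1 lay above the sum of those falls, while Brd2 was highest in DKO1. Kat2a, Naa40, Hdac6, Hdac9, Hdac11 and Sirt1 were negative. Among them Hdac6, Hdac9 and Hdac11 rose after each single loss against WT and were no higher in DKO1 than in ACLY KO, with differences of -0.20, -0.02 and -0.13 (adjusted p = 0.24, 0.95 and 0.3). Each single loss was set against the same WT libraries, which also enter the difference between effects. For these genes, and for Brd3, Naa15 and Nat10, the single-loss changes and that difference are therefore not independent results.

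The sequence just upstream of the start of transcription is shown for the members with the largest called changes. These were Sirt1, Sirt5 and Naa40, which fell together without ACLY, and Hdac9 and Hdac11. Those 2 were higher in each single knockout than in WT, whose libraries both comparisons share. Sequences are from RefSeq on GRCm38, 5′ to 3′ on the gene's strand, stopping before the first annotated exon base, and 42 of the 46 members had such a window. Capitals mark matches on either strand to the GC box, spelled GGGCGG, to the E-box, which was searched for as CACGTG, or to the CCAAT box. The core of ETS factor motifs, with the letters CCGGAA, was searched for too and had no match in these windows. Sirt1 lies at chr10:63319005-63381704 on the minus strand, and 235 bases at chr10:63339051-63339285 precede its RefSeq start. Sirt5 (chr13:43365496-43395203, plus) is shown at chr13:43365285-43365495 and Naa40 (chr19:7225668-7241183, minus) at chr19:7241223-7241472. For Hdac9 (chr12:34047580-34917095, minus) the bases before 1 of its 2 RefSeq starts, the nearer to the transcript used for its length, are at chr12:34528890-34529139, and for Hdac11 (chr6:91156665-91174692, plus) 100 bases are at chr6:91156565-91156664.
Sirt1: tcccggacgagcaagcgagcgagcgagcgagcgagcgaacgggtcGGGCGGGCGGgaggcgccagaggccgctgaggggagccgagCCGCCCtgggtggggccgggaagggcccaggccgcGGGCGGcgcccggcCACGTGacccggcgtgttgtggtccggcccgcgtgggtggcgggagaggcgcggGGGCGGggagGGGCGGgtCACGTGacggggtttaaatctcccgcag
Sirt5: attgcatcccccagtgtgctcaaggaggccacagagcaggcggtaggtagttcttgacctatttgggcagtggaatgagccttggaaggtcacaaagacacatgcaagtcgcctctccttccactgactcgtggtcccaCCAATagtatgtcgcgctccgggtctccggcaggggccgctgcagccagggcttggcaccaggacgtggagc
Naa40: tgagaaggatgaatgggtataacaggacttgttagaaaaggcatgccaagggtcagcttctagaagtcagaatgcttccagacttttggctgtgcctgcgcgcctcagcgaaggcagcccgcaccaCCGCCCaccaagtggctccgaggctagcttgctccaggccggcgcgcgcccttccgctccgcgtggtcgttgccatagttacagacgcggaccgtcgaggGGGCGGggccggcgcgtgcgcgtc
Hdac9: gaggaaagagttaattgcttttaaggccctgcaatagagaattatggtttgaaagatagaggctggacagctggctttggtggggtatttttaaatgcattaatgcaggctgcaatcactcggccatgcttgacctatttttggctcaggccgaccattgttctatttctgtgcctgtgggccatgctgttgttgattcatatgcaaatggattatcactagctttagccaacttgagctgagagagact
Hdac11: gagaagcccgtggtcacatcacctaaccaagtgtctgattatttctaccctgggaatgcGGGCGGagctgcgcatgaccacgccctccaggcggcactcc
Over the full 250 bases before the RefSeq start, Sirt1 held 6 GC box matches, overlapping in the first run of capitals, and 2 E-boxes, with 39 CpG dinucleotides. Naa40 held 2 GC boxes and 24 CpG, Sirt5 1 GC box and 1 CCAAT box with 13 CpG, and Hdac11 1 of each with 17 CpG, where the GC box of Sirt5 and the CCAAT box of Hdac11 lie outside the bases printed. Hdac9 held none of these motifs and 2 CpG. Of all 32851 windows of that length, 32.7% held a GC box, 33.8% a CCAAT box, 6.02% an E-box and 12% the ETS core, and the median CpG count was 6, against 18 over the 57 windows of members. These are matches of letters and say nothing of binding. The 5 genes did not share a motif.

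Several members lie among genes that moved the same way, which was described by the 10 tested genes on each side. The examples are taken from 25 members examined in this way. Of all genes, 24.7% were lower in ACLY KO minus WT and 27.8% in DKO1 minus ACSS2 KO. In DKO1 minus ACLY KO 14.3% were higher and 13.6% lower. Around Naa40 the 20 neighbours had a median log2 fold change of -0.42 in ACLY KO minus WT, with 14 lower and 0 higher, and of -0.61 in DKO1 minus ACSS2 KO, with 13 lower and 0 higher. Those around Sirt5 were at -0.61 with 15 lower in ACLY KO minus WT, but at 0.01 in DKO1 minus ACSS2 KO, where Sirt5 itself was at -1.71. Around Sirt7, 13 of 20 neighbours were higher in DKO1 minus ACLY KO, with a median of 0.58 beside its own 0.59, and around Brd1 11 were lower, with a median of -0.39 beside -0.58. Kat6a sat among neighbours at -0.48 in ACLY KO minus WT, 16 of them lower. In DKO1 minus ACSS2 KO, 12 of the 20 neighbours of Kat7 were lower beside its own -0.80. Of those of Kat2a 13 were lower there, although Kat2a itself was at -0.06. The neighbours of Sirt1 had medians of -0.22 and -0.16 beside its -2.06 and -2.80, those of Hdac9 were at 0.08 beside 1.99, and those of Hdac11 at -0.42 beside 0.99, in ACLY KO minus WT. Whether copy number of these regions differed between the clones was not tested.

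Per kb of transcript, levels over all 14 libraries spanned from 3540 normalized counts for Hat1 to 11.5 for Hdac9. After Hat1 came Brd2 (2550), Naa20 (2040), Hdac1 (1910) and Hdac2 (1700). Hat1 averaged 5903 ± 991 normalized counts in WT (SD, n = 4) and 5858 ± 1730 in DKO1 (SD, n = 3), and Sirt2 and Brd7 had the same level per kb (522). Crebbp (87.8) was far below Ep300 (435), and Kat6b (80.4) below Kat6a (344). The 7 sirtuins ran from Sirt2 (522) through Sirt7 (306), Sirt6 (127), Sirt3 (88.9) and Sirt4 (73.6) to Sirt1 (59.2) and Sirt5 (44.4). These are means over genotypes that differ, and within WT Sirt1 (95.1 per kb) came above Sirt3 (73.5), Sirt4 (62.7) and Sirt5 (61.0), whereas in ACLY KO Sirt1 (22.6 per kb) was below Sirt5 (31.0) and in DKO1 they were at 14.9 and 19.8. Hdac9 rose from 4.23 per kb in WT to 16.9 in ACLY KO, and its ACSS2 KO and DKO1 means were 8.53 and 17.1.

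Genes that work with the members but are not on the list were counted by role. Of 35 tested subunits of deacetylase complexes (mainly Sin3, NuRD, CoREST and NCoR), 2 were higher and 15 lower (42.9%) in ACLY KO minus WT, with a median of -0.23, and 4 were higher and 18 lower (51.4%) in DKO1 minus ACSS2 KO, with a median of -0.34. Of all genes, 23.8% were higher and 24.7% lower in the first of these comparisons, and 25.9% and 27.8% in the second. The medians of all genes were -0.01 and 0.01. After length correction the counts were 4 higher and 17 lower and then 5 higher and 18 lower. Of all genes, 30% and 31.2% were then higher and 31.3% and 32% lower. The same subunits were 3 higher and 1 lower in ACSS2 KO minus WT, where 15% and 11% of all genes were. The 52 tested partners of acetyltransferases were 12 higher and 16 lower in ACLY KO minus WT and 17 higher and 13 lower in DKO1 minus ACSS2 KO, with medians of 0.01 and -0.05 (after length correction 20 higher and 16 lower, then 18 higher and 9 lower). The 24 tested other acetyl-lysine readers were 3 higher and 7 lower and then 2 higher and 7 lower in the same comparisons, with medians of -0.08 and -0.21. After length correction these readers were 7 higher and 8 lower and then 8 higher and 5 lower, and the second median was 0.01.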

How the data were processed

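The authors deposited 1 table of normalized counts per gene and library, a signal made by DESeq normalization of read counts. Reads had been aligned with STAR to GRCm38/mm10, and the submitters' processing notes name DESeq2 version 1.0.1. The counting tool and annotation are not given in the sources used here. Only 28.2% to 52.1% of values under 50 in a library were whole multiples of 1 read, so no count model was used. Columns were assigned to genotypes by their labels. Of 24972 rows, 26 named as dates were left out.

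Genes with a mean of at least 10 (12693) were tested with limma 3.58.1 in R 4.3.3 on log2(value + 1), with 1 coefficient per genotype over all 14 libraries, an intensity trend and Benjamini-Hochberg adjustment over all genes. Fold changes are on that scale. The fit was tested on simulated data. Length correction removed a spline with 5 degrees of freedom on log transcript length from each library. DKO1 minus WT shares libraries with the other comparisons, and ACLY KO minus WT shares them with ACSS2 KO minus WT, so no overlap was counted between those. Values in every library are given for members that were called with an absolute log2 fold change of at least 0.5 for loss of either enzyme in either background, that were called for the difference between the effects of ACLY loss, or that encode p300, CBP, MOZ or MORF. The members and lists were chosen with earlier results of these data known. Same-numbered libraries did not deviate together (Pearson's r from -0.43 to 0.45).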

Additional observations from a re-analysis of the deposited data

Results flagged for a closer look

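In 11 of 92 groups of 4 libraries, 1 library lay farther from the rest than Dixon's 95% limit allows, where chance gives about 1 in 20 groups. Of these, 5 were WT replicate 2, with Brd3 (3855) and Sirt5 (107.3) at the high end and Hdac7 (4375), Mllt1 (2171) and Sirt6 (169.5) at the low end of WT. ACLY KO replicate 4 was lowest for Ep300 (3483) and Kat6a (2235). The others were Hdac10 in ACLY KO replicate 2 (410.0, highest), Hdac6 in WT replicate 3 (1001, highest), Kat5 in WT replicate 1 (1443, highest) and Naa15 in WT replicate 1 (6724, lowest). WT replicate 2 and ACLY KO replicate 4 are also libraries in which values fell with transcript length.

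The effect of losing ACLY differed with and without ACSS2 for 11 members, by the limma test of the difference itself (log2 difference and adjusted p). It was more positive without ACSS2 for Brd2 (0.63, adjusted p = 0.00018), Brd3 (0.54, adjusted p = 0.00058), Naa15 (0.49, adjusted p = 0.0024), Nat10 (0.41, adjusted p = 0.00094) and Brd7 (0.34, adjusted p = 0.01). It was more negative for Hdac11 (-1.13, adjusted p = 2e-05), Hdac9 (-1.03, adjusted p = 0.02), Sirt1 (-0.74, adjusted p = 0.004), Hdac6 (-0.69, adjusted p = 0.0076), Kat2a (-0.42, adjusted p = 0.012) and Naa40 (-0.27, adjusted p = 0.046).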

How the results depend on the processing

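The members called in ACLY KO minus WT, DKO1 minus ACSS2 KO, ACSS2 KO minus WT, DKO1 minus ACLY KO, DKO1 minus WT and the difference between the effects of ACLY loss numbered 17, 24, 11, 12, 25 and 11. Of the 12693 genes tested, 6154, 6812, 3306, 3545, 7111 and 3435 were called, in the same order. With the transcript length correction ACLY KO minus WT, ACSS2 KO minus WT and that difference became 29, 18 and 19. Of all genes, 3806, 2694 and 2371 were then higher and 3977, 2418 and 2590 lower. With the 4 length-affected libraries left out, an alternative chosen after seeing the data, ACLY KO minus WT, ACSS2 KO minus WT, DKO1 minus ACLY KO and that difference became 34, 23, 19 and 20. Calls over all genes were not counted for this alternative or those that follow. These changes are therefore not results about the members alone. With only the 2 genotypes compared in the fit, DKO1 minus ACSS2 KO gave 13 and DKO1 minus ACLY KO 7. Without 1 library at a time, ACSS2 KO minus WT ranged from 9 to 20, with 20 without DKO1 replicate 4. That library belongs to neither genotype of this comparison and enters it only through the shared estimate of the spread. Leaving it out could thus change the adjusted p-values here but not the log2 fold changes. The cause of the other changes in these counts was not tested. With the replicate number as a replicate block the 6 counts were 16, 24, 10, 12, 24 and 11, and the numbers were not found to pair the libraries. Of 100 calls of members, 78 were kept on leaving out any 1 library. Of 50 log2 fold changes of named members followed over 25 alternatives, 37 stayed past the threshold in all that were run and 0 changed direction. Depth per gene was known only as normalized counts.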
